A study of Mus musculus with 4 samples.

Results

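The comparison described here asks what a pig testis extract (PT) adds in adipocytes that also receive daidzein. It sets the array titled daidzein+PT against the array titled daidzein, and its members are the genes read above background on both. A gene, taken by the name the array gives it, was a member when a probe of it was called well above background by the scanner software on both arrays. This held for 18582 of 34797 gene names. The difference of a gene is its log2 signal on the daidzein+PT array minus that on the daidzein array, each first scaled to the 75th percentile of its own array. A level below is such a scaled log2 signal, so that 0 is the 75th percentile of the spots and 1 unit is a doubling. Levels are set against each other only within a gene.

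All cells were 3T3-L1, an established mouse fibroblast line that is turned into fat cells in culture, labelled as adipocytes. The daidzein group received daidzein at 25 uM for 7 days after differentiation, and the daidzein+PT group received the same daidzein with PT at 100 ug/ml for the same 7 days. The other 2 groups, PBS alone and PT alone at 100 ug/ml for 7 days, form a further PT pair that shares no array with this one. Daidzein, a soy isoflavone, is thus present on both arrays compared here. Each group is 1 array of Cy3-labelled cRNA from cultured cells, so there is no replicate, no test and no p-value, and the number of arrays limits the precision. The daidzein array lay in row 1, column 4 of the slide and the daidzein+PT array in row 2, column 2, so PT and slide position cannot be told apart.

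Of the non-control spots, between 49.7% and 51.4% were well above background on the 4 arrays, and 0 spots were saturated. The spread of a difference was read from the difference between the 2 PT pairs, which also holds any true dependence of PT on daidzein. It is a spread over genes and not the error of a single gene, and an effect shared by both pairs does not enter it. By their mean signal on the 2 arrays, genes were divided into 3 groups of 6194, called dim, middle and bright. The resulting SD of a difference was 0.33 in the dim group, 0.14 in the middle group and 0.11 in the bright group. Genes outside the dim group are called brighter genes below. The scanner's own error model gave a median error of 0.20 for a difference. The 7 spike-in RNA probes read on all arrays gave a median difference of -0.083 after this scaling, and scaling on them in place of the percentile would put the median of all genes at 0.092. Every difference would move up by the same small amount, so medians given below as just under 0, from -0.08 upward, would then lie above it.

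Fat cells in culture are built by the transcription factors Pparg and Cebpa, which switch on genes for fatty acid uptake, triglyceride storage, insulin-responsive glucose uptake and hormones such as adiponectin. Cells also carry a separate set of genes that interferons induce through a complex of transcription factors that includes Irf9 and binds a short element with GAAA repeats near the gene's start. Many proteins of this set block viral replication or mark infected cells.

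On the daidzein+PT array, many genes of the mature fat cell stood at a higher level and many interferon-induced genes at a lower one. Across all members, a 2-fold higher level or more was seen for 200 of 18582 genes (1.08%) and a 2-fold lower one for 20 (0.108%). At 1.5-fold, 600 genes were higher (3.23%) and 160 lower (0.861%). The median difference of all members was 0.01, with 52.4% of genes above 0. Dim genes made up 159 of the 200 and 20 of the 20 genes past 2-fold. Among brighter genes, 181 passed 1.5-fold on the higher side and 19 on the lower. Of those 19 genes, 11 belong to the interferon lists used here, and 62 of the 181 belong to some list, with 0 of them in an interferon list. The antiviral and the GTPase list hold 39 and 16 of all 18582 members. How many brighter genes belong to some list was not counted, so the 62 has no share to stand beside. All lists were chosen with earlier results of these data known, so these counts only describe. With normexp, a model-based background correction that pulls dim spots together, the 2-fold counts were 61 higher and 2 lower.

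**Figure D1:**
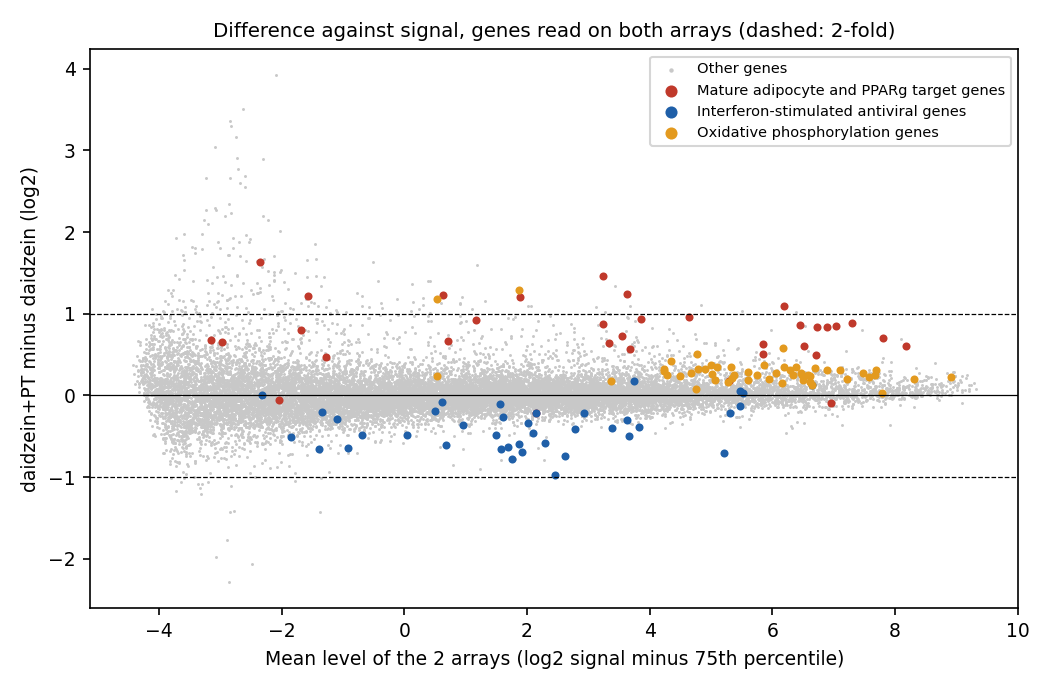
Each point is 1 of the 18582 genes read on both arrays, with its mean level on the horizontal axis and the log2 difference, daidzein+PT minus daidzein, on the vertical axis. Dashed lines mark 2-fold. The scatter is widest among dim genes, the mature adipocyte genes (red) lie mostly above 0 at high signal, and the interferon-stimulated antiviral genes (blue) lie mostly below 0.

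Adiponectin mRNA (Adipoq), the adipocyte hormone named in the series' title, had a level of 4.0 on the PBS array, 6.31 with daidzein, 5.08 with PT and 7.15 with both. It was highest on the daidzein+PT array, 1.79-fold above daidzein alone (log2 difference 0.84). The SD of a difference over bright genes was 0.11, and the scanner's error for this gene 0.20. Its probe lies at chr16:23157576-23157635 on mm9. In RNA from a whole culture, more fat-laden cells and more RNA per cell cannot be told apart, here and for every gene below.

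The label of the cells was set against markers of fat cells. Of 36 listed genes of the mature adipocyte and targets of Pparg, 34 were read on both arrays. The brown-fat genes Cidea and Ucp1 were the members not read on both. The summed level, the log2 of the genes' added scaled signals, was for these 34 genes 9.05 on PBS, 10.47 on daidzein, 9.62 on PT and 11.15 on daidzein+PT, whereas that of 33 preadipocyte and fibroblast genes was 11.65, 11.49, 11.63 and 11.50. Both groups of genes were thus present on every array, and the fat-cell genes differed more between arrays.

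Of the 34 mature adipocyte genes, 31 were above 0. Their median was 0.76, 26 passed 1.5-fold and 7 of these passed 2-fold, all on the higher side. The insulin-responsive glucose transporter Slc2a4 (GLUT4) had a level of -0.09 on PBS, 2.51 with daidzein, 1.25 with PT and 3.97 with both. It was 2.75-fold higher on daidzein+PT than on daidzein, with a probe at chr11:69756073-69756132 on mm9. Mrap, an accessory protein of melanocortin receptors, went from 3.02 on daidzein to 4.26 on daidzein+PT, a difference of 1.24. Both genes showed the same order of the 4 arrays as Adipoq, with PBS lowest, then PT, daidzein and the combination. Among dim members, the phosphatase Acp5 had a difference of 1.63 (1.0 with normexp) and Pck1, an enzyme that supplies glycerol for fat, 1.21.

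Adipokines and other proteins secreted by fat cells centred on 0.84 (median of the 19 read among 27 listed genes), with 16 above 0. Of these, 12 passed 1.5-fold and 4 passed 2-fold. The median was 0.66 with normexp. Leptin (Lep) and Rbp4 were among the 8 genes not read on both arrays. Retnla, a resistin-like protein, had the highest difference of all brighter genes with a symbol. Its level was -4.39 on PBS, -1.33 on daidzein, -3.83 on PT and 0.30 on daidzein+PT, a 3.10-fold difference with a probe at chr16:48844447-48844506 on mm9. The gene was low on both arrays without daidzein and highest on the combination.

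Chemerin (Rarres2), a chemoattractant made by fat, had a difference of 1.11 and resistin (Retn) one of 1.09. The acute-phase glycoproteins Orm1 and Orm2 were at 1.20 and 1.0, and haptoglobin (Hp), which binds free haemoglobin, at 0.92. Haptoglobin departed from the usual order: its level was 3.40 on PBS and 3.30 on daidzein, against 4.48 on PT and 4.21 on daidzein+PT. It was thus high on both arrays with PT and low on both without it. Serpina3n, a dim protease inhibitor, was the lowest of the list at -0.29 (-0.02 with normexp).

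The transcription factors that build fat cells were less uniform. Over 24 of 25 listed genes the median was 0.06 and 17 lay above 0. Past 1.5-fold were 5 genes on the higher side and 1 on the lower. Cebpa had a level of -0.19 on PBS, 1.34 on daidzein, 0.54 on PT and 2.29 on daidzein+PT, a difference of 0.95. The level of Pparg was 2.97, 4.0, 3.37 and 4.77 on the same arrays, a difference of 0.76. The oxysterol receptor Nr1h3 (LXRa) had a difference of 0.86, and the dim factor Klf15, which acts late in differentiation, one of 1.09. In each of these the daidzein+PT array was the highest. Klf5, an early factor of differentiation, ran the other way, from 0.71 on PBS and 0.27 on daidzein to 0.59 on PT and -0.32 on daidzein+PT (difference -0.59).

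Genes that store and release fat followed the mature adipocyte list, with which they share members. For lipolysis and the lipid droplet the median was 0.50 (0.36 with normexp), 17 of 19 genes lay above 0 and 9 passed 1.5-fold. The monoglyceride lipase Mgll had a level of -2.92 on PBS, 0.01 on daidzein, -1.71 on PT and 1.24 on daidzein+PT. It was 2.34-fold higher on the combination than on daidzein. G0s2, an inhibitor of the lipase Pnpla2, had a difference of 1.15, Plin1, which coats lipid droplets, 0.93, the glycerol channel Aqp7 (dim) 0.68 (0.32 with normexp) and the adrenergic receptor Adrb3 (dim) 0.80. The general coat proteins Plin2 and Plin3, which are not specific to fat cells, were at 0.18 and -0.08. Triglyceride assembly genes also centred on 0.50, 15 of 19 above 0 and 9 past 1.5-fold, led by Pck1 and by Dgat2, which makes the last bond of a triglyceride, at 0.96.

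Fatty acid synthesis and desaturation genes had a lower median, 0.29. While 20 of 22 lay above 0, 4 passed 1.5-fold. Those 4 were Pnpla3 (dim, 1.41, and 0.64 with normexp), the lipogenic regulator Thrsp (1.03), the desaturase Scd1 (1.03) and fatty acid synthase Fasn (0.66). By its other probe Pnpla3 was at 0.50, short of 1.5-fold. Scd3, the lowest of the list at -0.05, was at 1.38 by another probe. Scd1 had a level of 3.70 on PBS, 5.87 on daidzein, 4.91 on PT and 6.90 on daidzein+PT. Its order of arrays matched that of Adipoq.

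Genes of cholesterol synthesis and uptake lay above 0 with 1 exception among 25 (median 0.40), a narrow and even difference in which 3 genes passed 1.5-fold and none passed 2-fold. The highest were Fdps, which makes farnesyl diphosphate, at 0.71, the isomerase Idi1 at 0.62 and the mevalonate-pathway kinase Pmvk at 0.60. Fdps had a level of 3.17 on PBS, 3.42 on daidzein, 3.25 on PT and 4.13 on daidzein+PT, so that it stood out on the combination array. The exception was Srebf2, the sterol-sensing factor of the pathway, a dim gene at -0.40.

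The letters upstream of these genes were searched because sterol genes are known to need the factor NF-Y, which binds the box CCAAT. The search took the 250 bases before each gene's start in RefSeq on GRCm38.p6, on both strands, and counted a gene when any of its listed starts held the letters. CCAAT was found for 17 of 18 cholesterol genes with a promoter in the table (94.4%), against 37.5% of all 27025 genes with one. The share was also high in ER stress genes (76.9%), mitosis genes (74.2%) and fatty acid synthesis genes (73.7%), so it does not single out the cholesterol list. Idi1 and Lss are shown as examples with the box, or its other strand ATTGG, in capitals, at chr13:8885541-8885605 (+ strand) and chr10:76531523-76531567 (+ strand) on GRCm38.p6.
Idi1: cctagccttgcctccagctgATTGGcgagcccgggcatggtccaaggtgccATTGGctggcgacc
Lss: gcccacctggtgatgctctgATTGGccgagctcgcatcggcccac
A match is a description of letters and not a binding site. The sterol element TCACNCCAC was found in 1 of the 18 genes (1.22% of all promoters).

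By the probe used for each gene, targets of the oxysterol receptor LXR all lay above 0 (14 of 14, median 0.46), and 5 passed 2-fold. That median was 0.23 without the dim members and also 0.23 without its largest member, since the list falls into a high and a low group. The apolipoproteins of the cluster next to Apoe were in the high group: Apoc1 at 1.34, Apoc4 at 1.25 and Apoc2 (dim) at 1.14. Apoc1 had a level of 1.89 on PBS, 2.76 on daidzein, 2.57 on PT and 4.10 on daidzein+PT. Their neighbour Apoe itself was at 0.22. The cholesterol exporters Abcg1 (dim) and Abca1 were at 1.02 and 0.69, whereas the transfer protein Pltp was at 0.23. The LXR-induced ligase Mylip was at 0.11, and at -0.21 by its other probe.

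**Figure D2:**
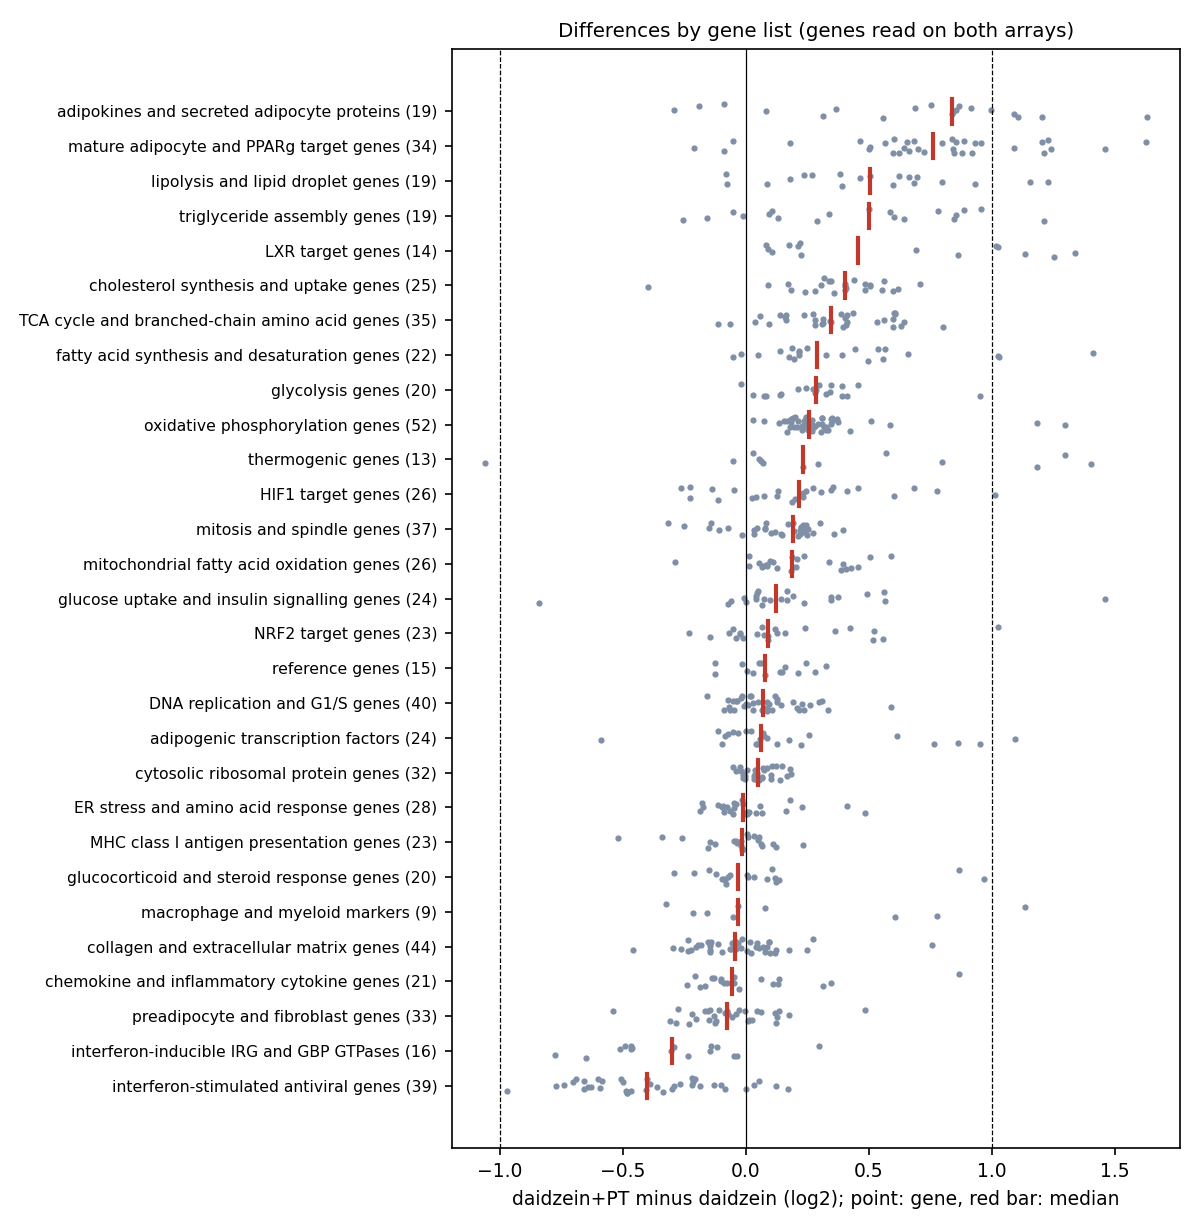
Each point is a gene read on both arrays, placed by its log2 difference, daidzein+PT minus daidzein, in the row of its list, with the number of genes in brackets; red bars are list medians and dashed lines mark 2-fold. The mature adipocyte, adipokine, lipid droplet, triglyceride and fatty acid synthesis lists have medians from 0.29 to 0.84, the adipogenic factors 0.06, the 52 oxidative phosphorylation genes all lie above 0, and the interferon lists are the lowest.

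By the probe used for each gene, nuclear genes of the respiratory chain and ATP synthase lay above 0, 52 of 52, the lowest at 0.03. A further probe of Ndufb5 gave -0.07. The count was made under the main scaling only. Their median was small, 0.26 (0.21 with quantile normalization), and 3 of the 52 passed 1.5-fold. The difference was spread evenly over the machinery. Complex I subunits had a median of 0.26 (18 genes, 0.07 to 0.42), complex II of 0.32, complex III of 0.32, complex IV of 0.24 (10 genes) and ATP synthase of 0.24 (13 genes, 0.03 to 0.35). In PT over PBS the corresponding medians were 0.03, 0.03, 0.04, 0.02 and 0.01. Of all genes in the bright group, 59.9% lay above 0 here (median 0.026) and 33.1% in PT over PBS. The electron carrier Cycs, at 0.59, was among the 3 genes past 1.5-fold.

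The other members past 1.5-fold were subunits of complex IV with a restricted tissue range. Cox7a1, the heart, muscle and brown-fat form of subunit 7a, had a level of 0.55 on PBS, 1.22 on daidzein, 0.73 on PT and 2.52 on daidzein+PT. Its level was highest on the combination array and next highest on daidzein, with a difference of 1.3 here against 0.18 for PT over PBS. Cox8b had a level of -2.94, -0.06, -1.85 and 1.13 on the same arrays, a difference of 1.19 here and 1.09 for PT over PBS.

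Cycles that feed the chain lay in the same direction. For the TCA cycle and branched-chain amino acids 33 of 35 genes lay above 0 (median 0.35) and 8 passed 1.5-fold. Pyruvate carboxylase (Pcx), which refills the cycle, was highest at 0.80, followed by Bckdhb, part of the enzyme complex that commits branched-chain amino acids to breakdown, at 0.64. Those of mitochondrial fatty acid oxidation were lower (median 0.19, 25 of 26 above 0), with the carnitine transferase Cpt2 at 0.59.

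Of the glycolysis genes 19 of 20 lay above 0, and their median was 0.28, against -0.04 for PT over PBS. With quantile normalization or loess the median here was 0.23. Pfkfb1, which makes the activator of phosphofructokinase, had a level of 0.12 on PBS, 1.21 on daidzein, 0.65 on PT and 2.16 on daidzein+PT. It was the 1 gene of the list past 1.5-fold. Aldoa and Ldha, enzymes of the pathway itself, were at 0.39 and 0.41. Genes listed as HIF1 targets, some of which are glycolytic, stood at a median of 0.22 (20 of 26 above 0) against -0.03. Among them Selenbp1 was at 1.01. Its level was -0.81 on PBS, -0.09 on daidzein, -0.54 on PT and 0.93 on daidzein+PT, the same order of arrays as Adipoq. The oxygen-sensing hydroxylase Egln3 was at 0.78 (0.57 by another probe) and the mitophagy receptor Bnip3 at 0.68 (0.35 by its lowest probe). Bnip3 had a level of 4.67 on PBS, 4.94 on daidzein, 4.70 on PT and 5.62 on daidzein+PT, so the combination array stood apart.

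Thermogenic genes varied widely. Of 23 listed genes 13 were read on both arrays, 11 of them above 0, with a median of 0.23 and a range from -1.06 to 1.41. That median was 0.43 without the dim members, 0.15 without its largest member, 0.14 with quantile normalization and 0.15 with the deposited table. The amino acid transporter Slc36a2 had a level of -2.69 on PBS, -1.13 on daidzein, -0.92 on PT and 0.28 on daidzein+PT (difference 1.41). The thyroid hormone activating enzyme Dio2 (dim) was the lowest at -1.06, or -0.33 with normexp. Ucp1, Prdm16 and Elovl3, which define brown fat, were not read on both arrays, and Ppargc1a was at 0.07.

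Glucose uptake and insulin signalling genes other than Slc2a4 differed little. The list median was 0.12 (19 of 24 above 0; 0.079 with quantile normalization), and the caveolae protein Cav1 was at 0.56. Irs3, an insulin receptor substrate of rodents, was the lowest at -0.84 in a dim reading, or -0.16 with normexp.

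Interferon-induced genes were the lower group of the comparison. Of 39 listed antiviral genes read on both arrays, 34 lay below 0 (median -0.40). At 1.5-fold 11 were lower and 0 higher, and 0 were 2-fold lower. The interferon-inducible GTPases of the IRG and GBP families lay below 0 with 1 exception among 16 (median -0.30), and 2 were 1.5-fold lower. Of the 15 lowest brighter genes with a symbol, 10 belong to these lists, which hold 39 and 16 of all 18582 members. The lists were chosen with earlier results of these data known.

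Ifit3, which binds other Ifit proteins on viral RNA, was the lowest of the brighter genes with a symbol. Its level was 3.51 on PBS, 2.95 on daidzein, 2.65 on PT and 1.98 on daidzein+PT. It was lowest on the combination array and 1.96-fold below daidzein alone, with a probe at chr19:34663105-34663164 on mm9. The log2 difference was -0.97, with an SD of a difference over bright genes of 0.11 and a scanner error for this gene of 0.20. Isg15, a ubiquitin-like protein, had a level of 6.10, 5.56, 5.66 and 4.85 on the same arrays (difference -0.70). Ifit1 was at -0.77, and the antiviral GTPases Mx1 and Mx2 were at -0.69 and -0.66. Among the IRG proteins, which attack the vacuoles of intracellular parasites, Tgtp2 was at -0.78 and Igtp at -0.65. Tgtp2 has a near-identical copy, Tgtp1, and Ifit3 has one in Ifit3b (-0.90), so probes for these may read both copies.

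The oligoadenylate synthetases, which make the signal that activates RNase L, differed from Ifit3 in their order of arrays. Oas1a had a level of 2.77 on PBS, 2.0 on daidzein, 2.61 on PT and 1.37 on daidzein+PT, a difference of -0.63 here against -0.16 for PT over PBS. Oasl2 was at -0.74 here and -0.26 for PT over PBS, and Ifi44 at -0.60 and -0.08. These 3 genes were low on both arrays with daidzein, whereas Tgtp2 (-0.78 and -0.87) and Igtp (-0.65 and -0.69) differed alike in both pairs. The factors that carry the interferon signal, Stat2 and Irf9, were at -0.50 and -0.41, and Irf7 (dim), which amplifies it, at -0.64.

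Sequences upstream of the lower genes are shown because most of those matched to a RefSeq promoter hold the letters of the interferon-stimulated response element. The motif searched was GAAA, then any 2 bases, then GAAA (TTTC, any 2 bases and TTTC on the other strand), in the 250 bases before the start. It was found in 936 of 27025 genes with a promoter in the RefSeq table (3.46%) and in 3.14% of brighter members. Of the 19 brighter genes at least 1.5-fold lower, 11 had a promoter in the table and 8 of these held the motif (72.7%). The 8 were Ifit3, Ifit3b, Tgtp2, Ifit1, Isg15, Igtp, Oas1a and Trim30d, and the 3 without it in this window were Grem1, Oasl2 and Ifi44. Ifit3, Ifit3b and Ifit1 belong to 1 family, and Tgtp2 and Igtp are both IRG genes, so the 8 are not 8 separate examples. Matches are in capitals and the windows end before the start of the transcript, on GRCm38.p6: Ifit3 at chr19:34583353-34583436 (+), Ifit1 at chr19:34640765-34640833 (+), Isg15 at chr4:156200855-156200916 (-), Oas1a at chr5:120907526-120907565 (-), Tgtp2 at chr11:49064253-49064302 (-), Igtp at chr11:58199502-58199551 (+) and Irgm2 at chr11:58214893-58214942 (+).
Ifit3: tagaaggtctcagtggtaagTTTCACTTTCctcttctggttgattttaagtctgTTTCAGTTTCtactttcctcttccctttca
Ifit1: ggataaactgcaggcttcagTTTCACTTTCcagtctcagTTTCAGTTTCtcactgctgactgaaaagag
Isg15: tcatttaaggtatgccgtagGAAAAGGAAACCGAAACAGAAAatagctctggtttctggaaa
Oas1a: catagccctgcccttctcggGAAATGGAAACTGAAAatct
Tgtp2: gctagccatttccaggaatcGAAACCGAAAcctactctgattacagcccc
Igtp: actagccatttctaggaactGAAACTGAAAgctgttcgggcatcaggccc
Irgm2: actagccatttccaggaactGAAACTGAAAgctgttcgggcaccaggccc
Ifit3 and Ifit1 hold separate matches, while those of Isg15 and Oas1a overlap in 1 run. The windows of Igtp and Irgm2 are nearly the same, so these genes, which are copies of a family, are not separate examples.

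The share of genes with the motif followed the size of the difference on the lower side. Between 1.25-fold and 1.5-fold lower it was 18.2% (16 of 88), under 1.25-fold either way 2.84% (204 of 7189), between 1.25-fold and 1.5-fold higher 2.92% (8 of 274) and at 1.5-fold or more higher 4.20% (5 of 119). By list, 8 of 10 IRG and GBP genes with a promoter in the table held it (80.0%), as did 8 of 26 antiviral genes (30.8%). A gene without a match lacks only these letters in this window.

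**Figure D3:**
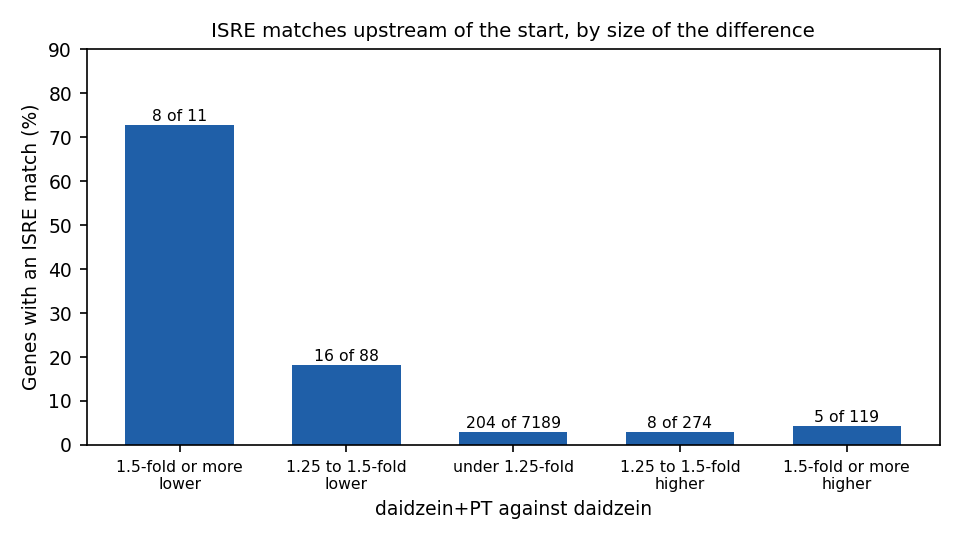
Bars give the percentage of genes whose 250 bases upstream hold the letters of the interferon-stimulated response element (ISRE), for brighter genes grouped by fold difference between daidzein+PT and daidzein; counts stand above the bars. The share is 72.7% among genes at least 1.5-fold lower and 18.2% between 1.25-fold and 1.5-fold lower. It lies between 2.84% and 4.20% in the group under 1.25-fold either way and the groups with a higher level.

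Neighbouring immune genes did not share the size of the interferon difference. For MHC class I antigen presentation the median was -0.02 (13 of 23 genes below 0), with the peptide transporter Tap1 at -0.26 and the dim peptidase Erap1 at -0.52 (-0.27 with normexp). For chemokines and inflammatory cytokines it was -0.06 (14 of 21 below 0). Cxcl10, an interferon-induced chemokine, was at -0.19 here against -0.81 for PT over PBS.

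Outside the lists, the 15 highest brighter genes included several with known roles in fat or innate immunity. The cathelicidin Camp, an antimicrobial peptide, had a level of -1.48 on PBS, -0.28 on daidzein, -0.40 on PT and 1.11 on daidzein+PT (difference 1.40). The synuclein Sncg was at 1.37, the hydrolase Cmbl at 1.40 and the carboxylesterase Ces1f at 1.21. The actin-associated protein Pdlim4 was at 1.22. In all of these the combination array was the highest of the 4.

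Clec2d, a ligand of natural killer cell receptors, was second among the brighter genes at 1.59, yet its pattern was unlike the rest. Its level was 1.63 on PBS, 0.39 on daidzein, 1.33 on PT and 1.98 on daidzein+PT, with a probe at chr6:129136413-129136472 on mm9. The daidzein array was the low one of the 4, and PT over PBS gave -0.29. Grem1, an antagonist of bone morphogenetic proteins, was at -0.86 and lowest on the combination array. Its level was 1.74 on PBS, 1.22 on daidzein, 1.70 on PT and 0.36 on daidzein+PT, with a probe at chr2:113589227-113589286 on mm9 and -0.04 for PT over PBS.

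Other genes also had a PT difference with daidzein that was far from the one without it. The metalloproteinase Adamts15 had a level of -0.08 on PBS, -0.42 on daidzein, -0.15 on PT and 0.72 on daidzein+PT. Its difference was 1.14 here and -0.06 for PT over PBS. Rgcc, a regulator of the cell cycle, was at 1.11 and 0.29, leukotriene C4 synthase (Ltc4s) at 1.1 and 0.30, calsyntenin Clstn3 at 0.95 and 0.06, and the mitochondrial kinase Ak4 at 0.60 and -0.23. These differences between pairs were not tested.

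**Figure D4:**
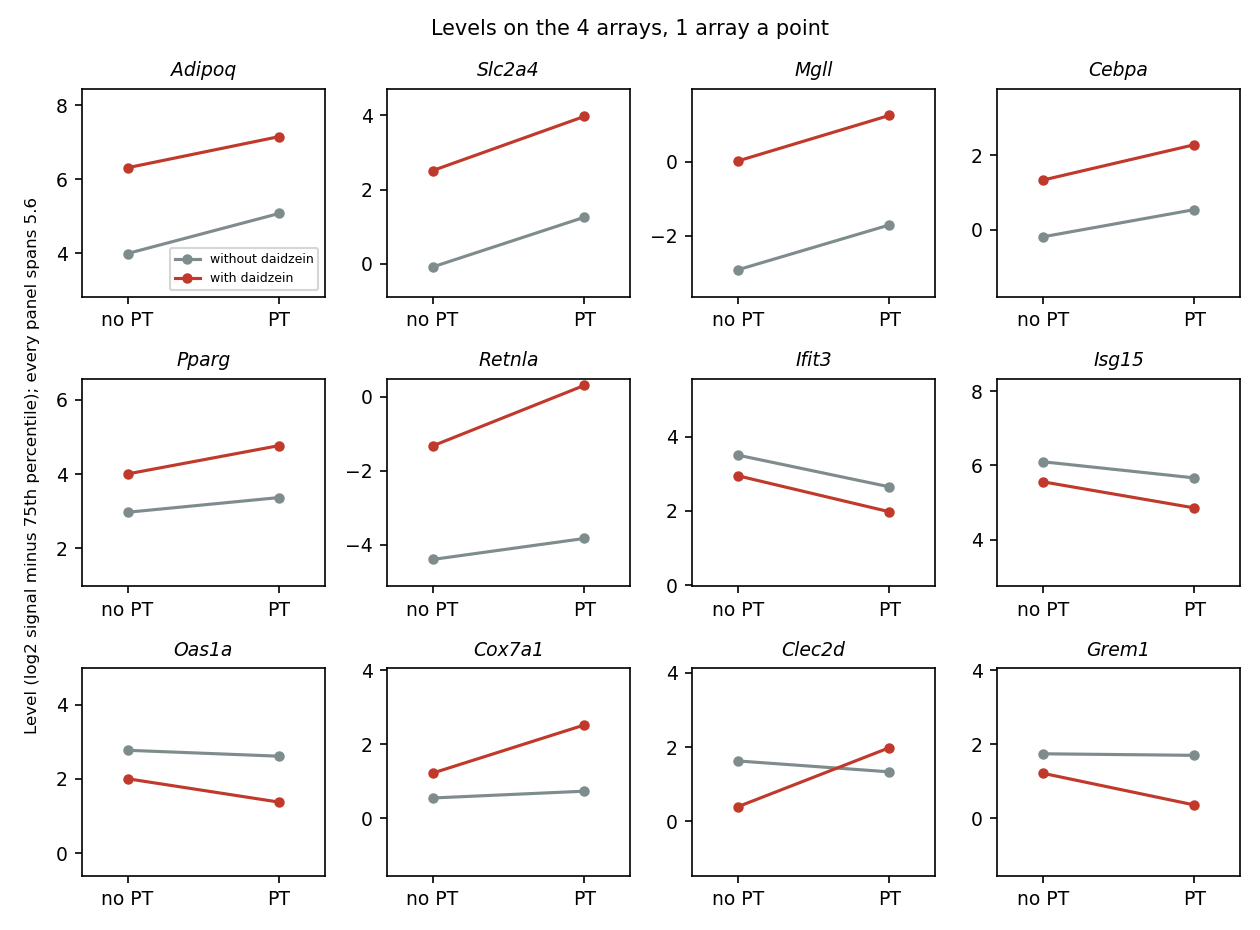
Levels (log2 signal minus the array's 75th percentile) of 12 genes on the 4 arrays, without PT on the left and with PT on the right of each panel; grey lines join the arrays without daidzein and red lines those with it, and every panel spans the same range. Adipoq, Slc2a4 and Mgll are higher on the PT side with and without daidzein, Ifit3 and Isg15 lower, whereas Cox7a1, Clec2d and Grem1 differ with PT mainly on the red lines.

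The pair was set against PT over PBS, which shares no array with it, over the 18260 members read on all 4 arrays. Across genes, which are not independent, Pearson's r between the 2 differences was 0.12 in the dim group, 0.43 in the middle group and 0.48 in the bright group. Of the bright genes at least 1.5-fold higher here, 42.7% were also at least 1.5-fold higher in PT over PBS (35 genes), which is 68.6% of the PT over PBS list. In the middle group 44 genes were shared, 44.4% and 64.7% of the lists. In the dim group the shared 45 genes were 14.7% and 14.9%. Of all genes, 0.823% of the bright, 1.1% of the middle and 5.16% of the dim group were at least 1.5-fold higher in PT over PBS. On the lower side the shared genes were 1 of 4 bright, 7 of 15 middle and 4 of 134 dim genes at least 1.5-fold lower here. The shares of all genes that low in PT over PBS were 0.0161%, 0.210% and 1.46%. The mature adipocyte list had a median of 0.76 here and 0.92 for PT over PBS, and the antiviral list -0.40 and -0.22. Both PT arrays lie in row 2 of the slide, so a row effect would enter both pairs alike.

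**Figure D5:**
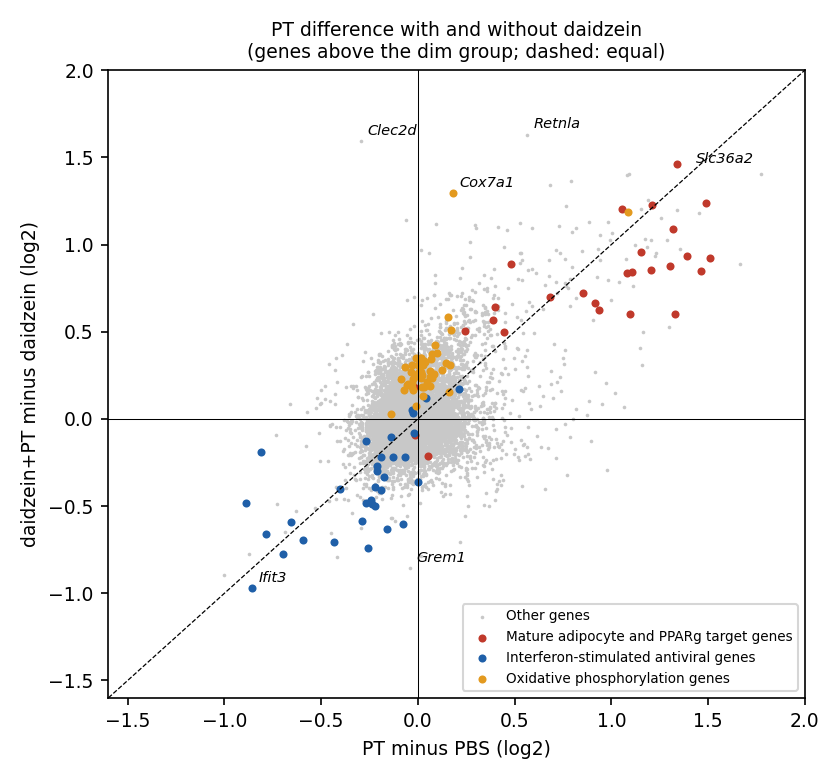
Each point is a brighter gene, with the log2 difference PT minus PBS on the horizontal axis and daidzein+PT minus daidzein on the vertical axis; the dashed line marks equal differences. Mature adipocyte genes (red) lie mostly high on both axes and antiviral genes (blue) mostly low on both. Oxidative phosphorylation genes (orange) have a median of 0.02 on the horizontal axis, where Cox8b is at 1.09, and of 0.26 on the vertical axis.

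Cell division genes lay slightly above 0. For mitosis and the spindle the median was 0.19 (30 of 37 above 0) against -0.02 for PT over PBS, with the centromere protein Cenpa at 0.39 and the survivin gene Birc5 at 0.36, and none passed 1.5-fold. For DNA replication it was 0.07 (27 of 40 above 0) against -0.06.

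Fibroblast and matrix genes lay near 0. The preadipocyte and fibroblast list stood at -0.08 (median; 22 of 33 below 0, 0 past 1.5-fold), from the matricellular Ccn5 at -0.54 to lumican (Lum) at 0.48. For collagens and other matrix genes the median was -0.04 (26 of 44 below 0), with Timp4 (dim), an inhibitor of matrix proteases, at 0.76 and Ccn1 at -0.46.

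Response genes for steroid hormones were counted because testis makes steroids. The list divided evenly, 10 of 20 above 0, around a median of -0.03. The classical glucocorticoid targets Fkbp5, Tsc22d3, Per1 and Zbtb16 were at -0.06, -0.12, 0.01 and 0.13. The 2 members past 1.5-fold were lipocalin Lcn2 at 0.87 and Hsd11b1, which turns inactive into active glucocorticoid, at 0.97. Hsd11b1 had a level of 0.33 on PBS, 1.89 on daidzein, 1.05 on PT and 2.86 on daidzein+PT. The estrogen receptor gene Esr1 was not read on both arrays, and Esr2 was at -0.08.

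Stress lists also lay near 0, with single exceptions. NRF2 targets centred on 0.09 (15 of 23 above 0), with the glutathione transferase Gsta3 at 1.02 here and 0.99 for PT over PBS. The ER stress and amino acid response list stood at -0.01 (median; 16 of 28 below 0), with Psat1, an enzyme of serine synthesis, at 0.49 and Xbp1 at 0.41. Cytosolic ribosomal protein genes centred on 0.048 (23 of 32 above 0), and on -0.033 with quantile normalization and -0.029 with loess or the deposited table. The 15 reference genes had a median of 0.08, from Tbp and Gusb at -0.12 to Sdha, a respiratory subunit, at 0.33, with Actb at 0.08 and Gapdh at 0.28 (0.14 with quantile normalization).

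Markers of other cell types were few and mostly dim. Of 20 macrophage and myeloid markers 9 were read on both arrays, with a median of -0.03, and Ptprc, Emr1 and Mrc1 were among those not read. Of the 9 read, 4 lay above 0 and 5 below. On the higher side 3 passed 1.5-fold, all in dim readings, and none did on the lower. They were the chitinase-like Chil3 at 1.14, the scavenger receptor Marco at 0.78 and the lysozyme Lyz1 at 0.61. Below 0 were Aif1 (dim) at -0.32, Cd14 at -0.21, Lyz2 (dim) at -0.16 and Csf1r, the receptor for a macrophage growth factor, at -0.05. The summed level of the 9 genes was 5.01 on PBS, 4.92 on daidzein, 4.97 on PT and 4.99 on daidzein+PT. Summed levels on daidzein and daidzein+PT were 2.46 and 2.59 for 6 lymphocyte markers, 3.88 and 3.98 for 5 endothelial markers and 0.41 and 0.44 for 5 muscle markers. Of the lymphocyte markers 4 of 6 lay above 0, from Lck (dim) at -0.11 to the dim natural killer receptor Klra5 at 1.46. The endothelial markers had 3 of 5 above 0, from Pecam1 (dim) at -0.24 to the dim junction protein Esam at 1.93 (0.82 with normexp). Flt1 was at 0.16 by its brightest probe and -0.82 by another, while Cdh5 and Tek were not read on both arrays. Of 21 testis markers 6 were read on both arrays, with a summed level of 3.23 on daidzein and 3.31 on daidzein+PT. The dim sperm protamine Prm1 was the highest of these at 0.76 (0.25 with normexp), and Ddx4, Amh and Lhcgr were not read. The part of other cell types in the results above was not tested.

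The largest differences of all members were in dim genes. Cfap221, a protein of cilia, had a level of -4.09 on PBS, -4.06 on daidzein, -4.63 on PT and -0.13 on daidzein+PT. Its difference of 3.93 rested on the daidzein+PT array alone and was 2.38 with normexp. Kap was at 3.51 (1.78 with normexp) and Bicra at 3.36 (1.68 with normexp). At the other end the olfactory receptor Olfr482 had a level of -3.67, -1.71, -3.81 and -4.0, high on the daidzein array alone, for a difference of -2.29 (-1.01 with normexp). Sh2d2a was at -1.77 by its brightest probe and 0.17 by another.

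A gene's further probes are other readings of the same RNA on the same arrays. Among 5169 genes with at least 2 readable probes, the brighter probe was at least 1.5-fold higher in 102, and the next probe had the same sign in 83 of these and was itself past 1.5-fold in 49. The brighter probe was at least 1.5-fold lower in 27 genes, and the next probe had the same sign in 17 and was past 1.5-fold in 4. Over all 5169 genes the next probe had the same sign in 63.6%, against 81.4% for the higher genes and 63.0% for the lower ones. The next probes of the lower genes had a median of -0.08, so most of these differences were not seen at their size by a further probe. Of all 160 genes at least 1.5-fold lower, 141 were dim, and the 27 were not divided by signal. Isg15 and Oas1a are the lower interferon genes described above with a second readable probe. Their probes gave -0.99 and -0.70, and -0.77 and -0.63.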

How the data were processed

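RNA of 3T3-L1 adipocytes was read on 1 Agilent single-colour array of 60-base probes per group. The scanner files hold a linear intensity per spot, with background subtracted and the array detrended by Agilent Feature Extraction 10.7.1.1, per the file headers. The submitters' processing notes give version 9.5.1.1. The series table deposited by the authors also holds intensities, quantile normalized as read from its values (sorted columns within 0.0474% of each other), and served as an alternative.

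From the deposited intensities, control spots and spots with an outlier flag were left out, log2 was taken and the array's 75th percentile subtracted. That percentile was 406 for daidzein and 360 for daidzein+PT, with 131 and 173 outlier spots. For each gene the probe used was the one of highest mean signal among probes well above background on both arrays. Symbols were updated by accession through RefSeq on GRCm38.p6 (1266 members renamed), and positions of probes were taken from the files (mm9). Promoters came from the same RefSeq release for 10301 members. Error of a difference is the SD, over genes, of the difference between the 2 PT pairs divided by the square root of 2.

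The members and the 33 lists were chosen with earlier results of these data known, and the lists are described by counts and medians with no test. The text names Adipoq, the 15 highest and 15 lowest genes with a symbol outside the dim group, up to 6 members of each list with the largest differences, the 8 genes in each direction furthest from PT over PBS, the reference genes, the 5 highest and lowest of all members and of the bounds. Some genes these rules select are not described, and the list members Plin2, Plin3, Srebf2, Lss, Abca1, Apoe, Pltp, Mylip, Ppargc1a, Stat2, Irf9, Irf7, Fkbp5, Tsc22d3, Per1, Esr2 and Csf1r were named for their known roles after their values were seen. Alternatives were normexp correction (offset 50, limma 3.58.1 in R 4.3.3), quantile normalization, loess, the deposited table, the mean over probes, no filter on dim probes and removal of the dim group. Calculations used Python 3.11.15, numpy 2.4.6 and pandas 2.3.3 and were tested on simulated data.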

Additional observations from a re-analysis of the deposited data

Results flagged for a closer look

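Clec2d had a difference of 1.59 when PT was added to daidzein and -0.29 for PT over PBS, opposite directions in the 2 pairs. Ak4 had 0.60 with daidzein and -0.23 without it. Among lists, the median of the glycolysis genes was 0.28 with daidzein and -0.04 without it, and that of the cytosolic ribosomal protein genes 0.048 and -0.064. Bright genes as a whole also differed between the pairs, with 59.9% above 0 with daidzein and 33.1% without it. How far this general shift enters the list medians was not tested. The glycolysis median of this pair was 0.23 with quantile normalization or loess. The ribosomal median of this pair was -0.033 with quantile normalization and -0.029 with loess or the deposited table. With 1 array per group these differences between the pairs were not tested.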

How the results depend on the processing

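No named gene past 1.5-fold and no list median past 0.11 changed sign under the alternatives run. The medians that did were those of MHC class I (0.006 with the mean over probes), steroid response (0.0037 without the dim group), ribosomal protein (-0.033 with quantile normalization, -0.029 with loess or the deposited table), endothelial (-0.0079 with the mean over probes) and muscle genes (0.00082 with normexp). No paired analysis was possible because each group has 1 array and the labels carry no replicate numbers. For the same reason no array could be left out. Of 19 list medians of at least 0.1 in size, 15 stayed within 1.5 times of their value under the alternatives run. The exceptions were LXR, thermogenic (0.14 with quantile normalization, 0.15 with the deposited table, 0.15 without its largest member), glucose uptake (0.079 with quantile normalization) and endothelial genes. The list medians cannot show what the filter on dim probes does, since only list members that had passed it were counted. With normexp the counts were 61 genes at least 2-fold higher and 2 lower, and 288 at least 1.5-fold higher and 24 lower, with medians of 0.66 for adipokines and 0.36 for lipolysis genes. Without the dim group they were 41 and 0, and 181 and 19, with medians of 0.62 for triglyceride assembly, 0.23 for LXR targets and 0.43 for thermogenic genes. With no filter on dim probes they were 2072 and 1102, and 3432 and 2375. At 1.5-fold lower, there were 271 genes with quantile normalization and 268 with the deposited values. The LXR median was 0.23 without its largest member. The share of higher genes among those past 1.5-fold was 78.9%, and 92.3% with normexp, 63.9% with quantile normalization, 64.1% with the deposited table, 59.1% with no filter and 90.5% without the dim group. The causes were not tested.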

Other observations

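On 1 array of the pair but not on the other, 1629 further genes were well above background, 822 of them brighter on daidzein+PT and 807 brighter on daidzein. For these the difference is a bound, taken from the level on the bright array and the dimmest spot well above background on the other array, or the dim reading itself where that was higher. Smcp, a protein of the sperm mitochondrial capsule, was at least 15.5-fold higher on daidzein+PT. It was not well above background on the other 3 arrays. Shbg, the carrier of sex steroids, was at least 13.1-fold higher and was also well above background on PT. In the other direction, Hdgfl1 was at least 29.2-fold lower, Dnm3, a dynamin, at least 25.5-fold lower and Nkd1, an antagonist of Wnt signalling, at least 14.8-fold lower on daidzein+PT. Hdgfl1 and Nkd1 were well above background on the daidzein array alone, and Dnm3 on the daidzein and PT arrays. Each of the genes named here was read by 1 probe on its bright array. Nkd1 has 2 probes, and the other was not well above background there.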
